A study of Mus musculus with 2 samples.

Results

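The genes described here encode the calcineurin, NFAT and Rel branch of T cell receptor signalling, and the question was where the TCF/LEF transcription factor Lef1 was found at them in mouse CD4+ T cells. There are 10 of them, chosen by name from 21887 protein-coding genes, with earlier results of these data known. A Lef1 peak was counted for a gene when it lay inside the gene body or within 50 kb of it. Of the 2052 peaks in the deposited list, 3 met this rule. They lay at Ppp3r1, Nfatc1 and Rel, 1 at each, and all 3 were inside the gene. The other 7 genes, Ppp3ca, Ppp3cb, Ppp3cc, Rcan1, Nfatc2, Nfatc3 and Nfkb1, had no listed peak in that range. Of all protein-coding genes, 15.5% had a peak by the same rule and 4.51% had one inside the gene body. Among those of similar length to the 10 genes, these shares were 18.9% and 8.33%.

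Calcineurin is the phosphatase that calcium and calmodulin switch on after the T cell receptor is engaged. It removes phosphates from NFAT transcription factors, which then enter the nucleus and turn on activation genes such as those of cytokines. Receptor signals also release Rel and NF-kB factors from inhibitors in the cytoplasm, and both families of factors meet at the control regions of many T cell genes. Calcineurin is the target of the immunosuppressants ciclosporin and tacrolimus. Lef1 and its relative Tcf1 are abundant in naive T cells, where they hold a programme of identity and quiescence.

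The wild-type cells were conventional CD4+ T cells, sorted as TCRb+, CD4+, CD25- and GFP-negative from spleens of C57BL/6 mice aged 8 to 10 weeks. The background came from TCRb+ CD4+ T cells of CD4-Cre+ Lef1 fl/fl mice on the C57BL/6 strain, in which the floxed Lef1 gene is deleted by a Cre under a CD4 promoter that is already active in thymocytes. No age is recorded here for the Lef1-deficient mice. By their source labels the wild-type sample holds conventional and the Lef1-deficient sample all CD4 T cells, while the tissue label calls both naive, so the sorts may differ in more than Lef1. Each genotype had 1 library of chromatin immunoprecipitation with sequencing (ChIP-seq), made with the same anti-Lef1 antibody (C18A7). With no replicate, nothing below is a test between genotypes, and a peak means an excess of wild-type reads over the Lef1-deficient ones at a site in these libraries. A peak list holds no expression, so the cell type labels could not be checked against markers here.

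The sequence under the peaks was not used here, but the start regions of several genes could be read. Those of Ppp3r1 and Rel are shown because their genes hold a peak elsewhere in the body, and that of Nfatc3 because it alone among the windows of these genes held a TCF/LEF word. Each line gives the 250 bases before the start, 5′ to 3′ on the strand of the gene, from RefSeq on build GRCm38.p6. The windows lie at chr11:17159048-17159297 (+ strand) for Ppp3r1, chr11:23770970-23771219 (- strand) for Rel and chr8:106058568-106058817 (+ strand) for Nfatc3. Capitals mark CTTTGA in Nfatc3 and GGGAAATCC in Rel, a form of the site that NF-kB factors bind.
Ppp3r1: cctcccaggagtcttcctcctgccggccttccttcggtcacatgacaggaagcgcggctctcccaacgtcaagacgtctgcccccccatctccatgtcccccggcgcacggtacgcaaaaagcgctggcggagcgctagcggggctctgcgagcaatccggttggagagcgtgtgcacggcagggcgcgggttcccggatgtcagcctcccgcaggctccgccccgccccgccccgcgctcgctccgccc
Rel: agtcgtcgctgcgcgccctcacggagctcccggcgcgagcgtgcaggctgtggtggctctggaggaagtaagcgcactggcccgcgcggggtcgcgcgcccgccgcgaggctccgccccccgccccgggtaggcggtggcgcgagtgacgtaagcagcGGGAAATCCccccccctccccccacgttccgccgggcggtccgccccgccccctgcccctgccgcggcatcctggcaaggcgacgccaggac
Nfatc3: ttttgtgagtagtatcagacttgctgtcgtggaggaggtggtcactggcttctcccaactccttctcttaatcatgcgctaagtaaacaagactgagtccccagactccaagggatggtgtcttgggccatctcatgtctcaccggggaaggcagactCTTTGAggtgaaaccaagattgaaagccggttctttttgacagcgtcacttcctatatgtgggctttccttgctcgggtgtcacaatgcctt

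The core of TCF/LEF sites was searched as CTTTGA and CTTTGT on both strands of these windows. Of 9 start windows for 6 of the genes, 1 held it, at the first of 2 starts of Nfatc3, where CTTTGA begins 92 bases before the start. Over all 32851 start windows of the table, 27.6% held one of these words. No listed peak lay near that Nfatc3 start: the nearest was 233 kb away. The windows of Ppp3r1 and Rel were rich in G and C, at 70.8% and 77.6%, against a median of 52.4% over all windows (upper quartile 61.2%). Windows of the genes without a peak ran from 48.4% at Ppp3cb to 67.6% at 1 start of Nfatc2, and Nfatc3 had both 49.6% and 65.2%. The word in Rel, which overlaps neither TCF/LEF word, also begins 92 bases before the start. GGGAAATCC, looked for after the sequence had been read, was in 0.28% of all windows on either strand and in no other of the 9 windows. A match is a run of letters and not evidence of binding.

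Calcineurin is built from a catalytic and a regulatory subunit. The regulatory subunit is the calcium-binding B subunit, and Ppp3r1, which encodes its widely expressed form, held a peak at chromosome 11, 17192484 to 17192647 (mm10), of 164 bp. Its score was 4.40, which is the authors' deposited −log10 p for the peak. The peak centre lay 33.3 kb downstream of the start and 7.81 kb before the other end, 81% of the way along this gene of 41.1 kb. It was the widest of the 3 peaks, and 94.3% of the peaks with the same score and 83.7% of the whole list were narrower. The next peak outside the gene was 289.7 kb away, inside Egfr, with a score of 4.25.

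The genes of the 3 catalytic subunits had none. Ppp3cb and Ppp3ca encode the beta and alpha forms found in lymphocytes, and Ppp3cc encodes the gamma form, best known from testis. The nearest peak to Ppp3cc (chromosome 14, 70217864 to 70289536) was 151.9 kb away, with a score of 5.68, and that to Ppp3cb (chromosome 14, 20499364 to 20546573) was 245.5 kb away, with a score of 4.37. Ppp3ca, the longest of the 10 genes at 268 kb (chromosome 3, 136669714 to 136937727), was 1.21 Mb from its nearest peak, which had a score of 5.68 and lay inside Trmt10a.

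Rcan1 encodes a protein that binds calcineurin and restrains it, and its downstream start is known as a target of NFAT. It had no peak within 50 kb (chromosome 16, 92391951 to 92466169). Its 2 starts in the RefSeq table lay 320.5 and 386.6 kb from the nearest peak. That peak (92786641 to 92786812, score 4.09) lay inside Runx1, which encodes a transcription factor of T cell development.

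Among the NFAT genes, Nfatc1 held the peak. It encodes NFATc1, the family member whose gene is itself induced by T cell activation. The peak lay at chromosome 18, 80657059 to 80657122, 64 bp wide and with a score of 4.40. It was close to the middle of this gene of 106.9 kb, 50.9 kb from the low-coordinate end and 56 kb from the high-coordinate end. The strand and starts of Nfatc1 were not used here, so its distance from a start is not given. Another peak of score 4.40 lay 131.9 kb beyond the gene, inside Atp9b, and was the listed peak nearest to any of the 10 windows without falling in one.

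Nfatc2 encodes NFATc2, abundant in resting T cells, and Nfatc3 a further calcineurin-dependent member of the family. Neither gene had a peak. Nfatc3 (chromosome 8, 106058818 to 106130537) was 233 kb from the nearest, a peak of score 5.63 inside Ranbp10. Nfatc2 (chromosome 2, 168476410 to 168601657) was 1.11 Mb from the nearest, which had a score of 5.03. Both starts of Nfatc2 lay further still, at 1222.5 and 1233.7 kb.

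Of the NF-kB genes, Rel held a peak and Nfkb1 did not. Rel encodes c-Rel, a factor of lymphocytes that drives Il2 and other activation genes. Its peak lay at chromosome 11, 23742781 to 23742858, 78 bp wide and with a score of 4.40. The peak centre was 28.1 kb downstream of the start, 82.5% of the way along this gene of 34.1 kb, and 5.97 kb from the far end. The next peak was 238.7 kb away and had a score of 4.23.

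Nfkb1 encodes p105, the precursor of p50, and p50 pairs with c-Rel or RelA. It was the gene furthest from any peak, at 1.84 Mb (chromosome 3, 135584655 to 135691969). Of all protein-coding genes, 9.4% were as far from a peak or further. Nfkb1 and Ppp3ca lie 978 kb apart on chromosome 3, in the same stretch without a listed peak. That stretch ran for 4.4 Mb, between peaks at 133747809 to 133747889 (score 4.40) and 138143489 to 138143559 (5.68), and held 22 protein-coding genes. Of 1999 stretches between neighbouring autosomal peaks, 102 were longer, and the median was 0.612 Mb. The absence of a peak at Nfkb1 and at Ppp3ca thus falls in the same empty stretch, although their 50 kb windows do not overlap. Whether these absences are independent of each other was not tested.

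**Figure D1:**
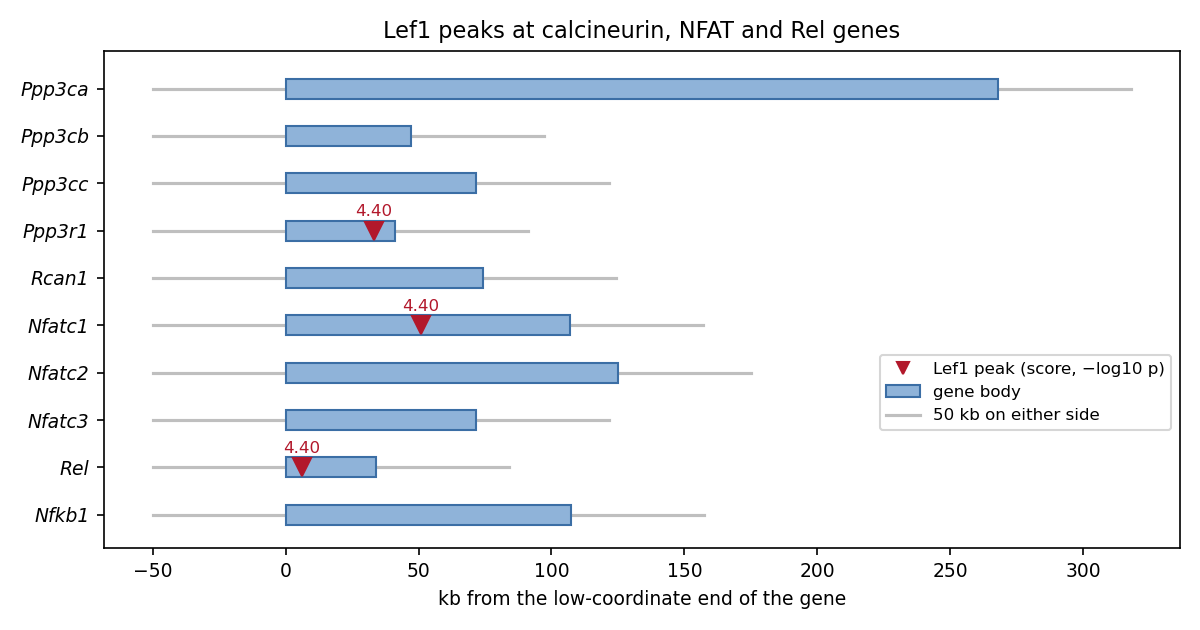
Map of the 10 genes, with distance in kb from the low-coordinate end of each gene along the x axis, the gene body as a bar and the 50 kb on either side as a line. Triangles mark the 3 Lef1 peaks, inside Ppp3r1, Nfatc1 and Rel, each with a score (−log10 p) of 4.40, and the other 7 genes have none.

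Counted by role, a peak lay at 0 of 3 catalytic subunit genes, at the regulatory subunit gene, at 0 of 1 calcineurin regulator gene, at 1 of 3 NFAT genes and at 1 of 2 Rel and NF-kB genes. These 3 of 10 genes make 30% (95% interval 6.67 to 65.2%, exact Clopper-Pearson), beside 15.5% of all protein-coding genes with a peak within 50 kb. The genes are long, with a median of 73 kb against 17.2 kb for all protein-coding genes. Of the 6169 protein-coding genes with a length between those of Rel and Ppp3ca, 18.9% had a peak within 50 kb. The interval includes both shares. It treats the genes as independent, although Nfkb1 and Ppp3ca lie in the same stretch without a peak.

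Counted inside gene bodies alone, the same 3 of 10 genes had a peak, beside 4.51% of all protein-coding genes and 8.33% of those of similar length. The interval of 6.67 to 65.2% lies above the share of all genes and includes that of genes of similar length. The 10 genes were chosen with earlier results of these data known, so neither comparison is a test. None of the 3 peaks touched another annotated gene of any kind, and for each the nearest protein-coding gene was the one it lay in. By that rule, which gives each peak to 1 gene at most, 6.67% of all protein-coding genes had a peak. The windows of the 10 genes held 1.54 peaks per Mb (exact Poisson 95% interval 0.318 to 4.5), against 1.05 per Mb in the same windows of all autosomal protein-coding genes. Inside the bodies the density was 3.17 per Mb (0.653 to 9.25), against 1.09. Both intervals cover the background density. The 7 windows without a peak span 1.47 Mb and also hold 16 other protein-coding genes, or parts of them. Intervals cover counting error only.

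**Figure D2:**
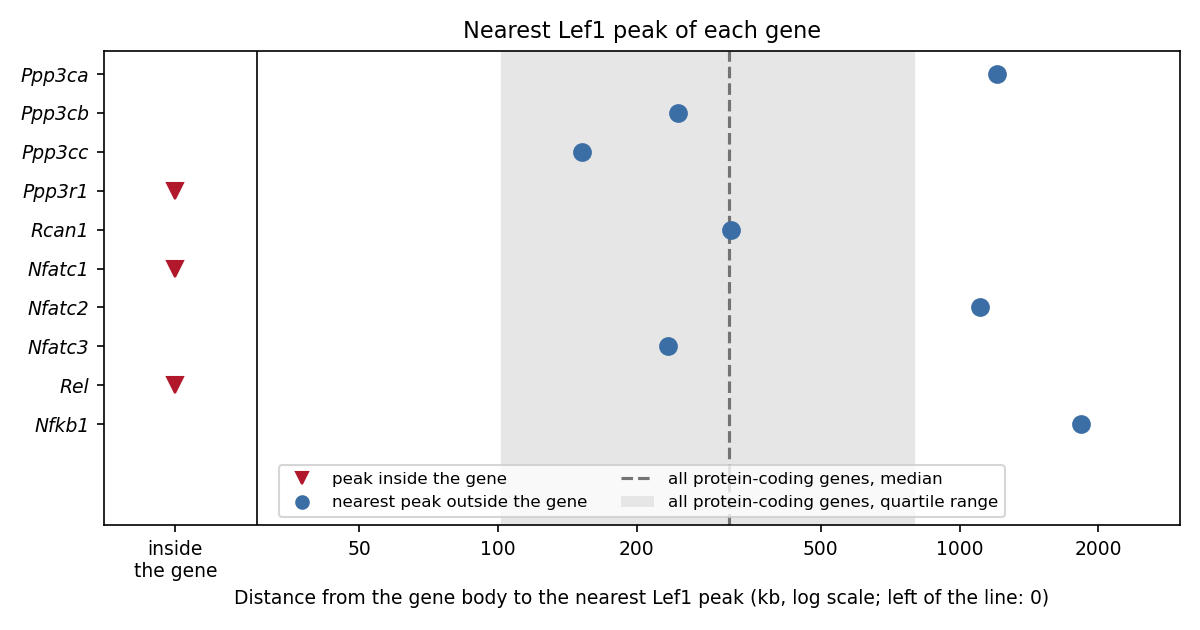
Distance from each gene body to the nearest Lef1 peak, in kb on a log scale, with peaks inside the gene (distance 0) set left of the line. The shaded band runs between the quartiles of all protein-coding genes (102 to 796 kb) and the dashed line their median (317 kb), and Ppp3ca, Nfatc2 and Nfkb1 lie beyond the band.

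The 7 genes without a peak fell into a nearer and a farther set. Ppp3cc, Nfatc3, Ppp3cb and Rcan1 were 151.9 to 320.5 kb from a peak, inside the middle range of all protein-coding genes, whose quartiles were 102 and 796 kb. Ppp3ca, Nfatc2 and Nfkb1 were more than 1 Mb away, as were 19.9% of all protein-coding genes. The median distance over the 10 genes was 239 kb, beside 317 kb over all genes.

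The 3 peaks shared more than their place inside a gene. All had the single most common score of the list, 4.40, which is also its median and was held by 828 peaks (40.4%). The list holds 628 peaks of higher score, up to 38.17, and 596 of lower score, down to 4.01. With peaks above the median score alone, 0 of the 10 genes had one, beside 5.84% of all protein-coding genes. Each of the 3 genes held a single site. Widths were 164, 78 and 64 bp at Ppp3r1, Rel and Nfatc1, against a median of 70 bp (quartiles 61 and 85 bp) for peaks of the same score. None lay within 1 kb of a gene end, where 26.1% of the 1076 peaks inside protein-coding genes lay. The shallowest was that of Rel, 5.97 kb from the end, and 55% of those 1076 peaks lay as deep or deeper. Their median was 7.9 kb from an end, farther than the peaks of Rel and Ppp3r1 (7.81 kb).

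**Figure D3:**
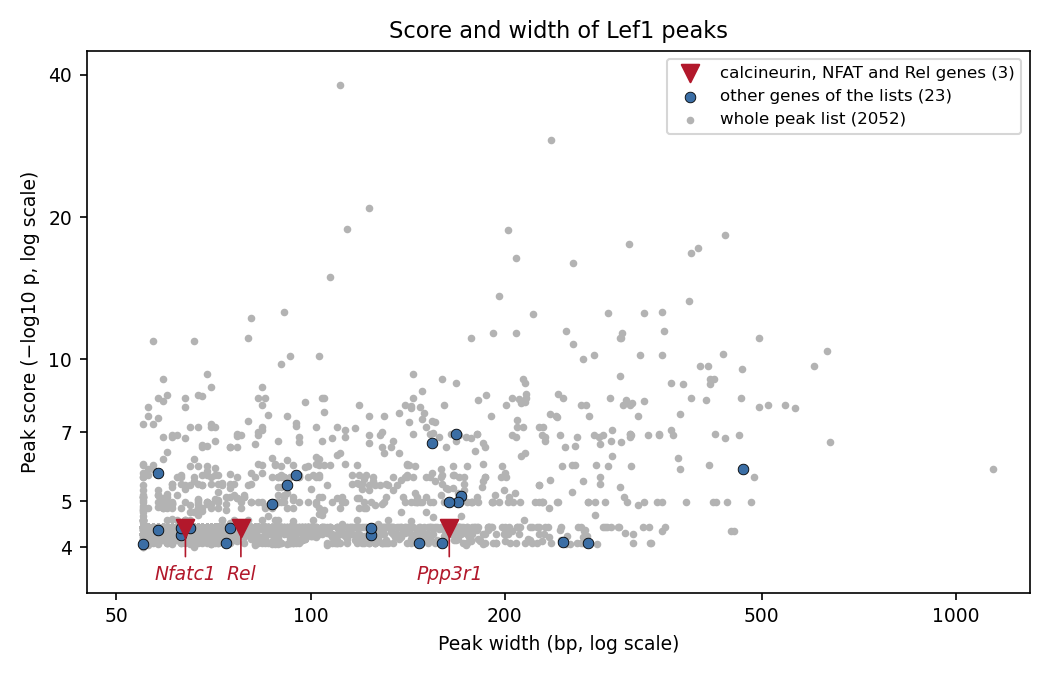
Score (−log10 p) against width in bp, both on log scales, for the 3 peaks at Ppp3r1, Nfatc1 and Rel (triangles), the 23 peaks at other genes of the pathway lists (dark points) and the 2052 peaks of the whole list (grey). The 3 peaks share the band at 4.40 and differ in width, from 64 to 164 bp.

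Genes that act before and beside calcineurin were counted in the same way, from lists of other pathway genes. Of 27 other genes of the calcineurin and NFAT pathway, 10 (37%, 95% interval 19.4 to 57.6%) had a peak within 50 kb, beside 15.5% of all protein-coding genes. The interval lies above that share. These genes are longer, with a median body of 36.1 kb against 17.2 kb, and no share was computed for genes of their lengths. The list was also chosen with results of these data known, so no test was made. They had 14 peaks, with scores of 4.06 to 6.66 and a median of 4.40, and 5 of the peaks scored above that value. At Calm2, which encodes calmodulin, the protein that switches calcineurin on, a peak of 4.08 (chromosome 17, 87447214 to 87447287) lay 279 bp outside the high-coordinate end. Calm3 had none. Itpr3, which encodes a receptor that releases stored calcium, had 3 peaks, scoring 4.11, 4.40 and 4.34. The first lay 405 bp outside the gene on the side of its start, and the third was nearer to Uqcc2. Itpr2, its relative, had 1 of 4.06 at 26.8 kb.

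Rcan3, a relative of Rcan1, had a peak of 5.12 (chromosome 4, 135436373 to 135436543) 2.5 kb outside the gene, upstream of its start. Kinases that phosphorylate NFAT and so return it to the cytoplasm are encoded by Gsk3b and Csnk1a1, which had peaks inside them of 4.94 and 4.40. Akap13, which encodes an anchoring protein of kinases, had 2 inside, of 4.40 and 4.25. The peaks at Plcg1 (4.99), which encodes a phospholipase that starts the calcium signal, and at Homer2 (6.66), a scaffold that binds NFAT, lay more than 28 kb off and inside Top1 and Whamm. The second peak counted for Csnk1a1 (4.25) lay inside Arhgef37. Akap5, Cabin1 and Dyrk1a were among the 17 without a peak.

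Of 22 other NF-kB pathway genes, 5 had a peak (22.7%, 7.82 to 45.4%), beside the same 15.5%. Prkcq, which encodes the kinase that links the receptor to NF-kB, had 1 of 6.95 inside it (chromosome 2, 11204443 to 11204610), and Tab1, a partner of the kinase Tak1, 1 of 5.86 (468 bp wide). Nfkbiz, an atypical inhibitor protein of the nucleus, had 1 of 4.09 inside it. The pair counted for Nfkb2, the paralog of Nfkb1, lay 26.1 and 26.2 kb away (5.75 and 4.08), at or inside Cuedc2. Bcl10, Bcl3, Chuk and Cyld were among the 17 with none.

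Of 18 partners and targets of NFAT in T cells, 2 had a peak within 50 kb (11.1%, 1.38 to 34.7%), Egr3 (5.68) and Fasl (4.99). Both peaks were nearer to another gene, Pebp4 and Suco. The peak counted for Egr3, a transcription factor gene that NFAT induces, was the same one that lay nearest to Ppp3cc. Batf, Cd40lg, Csf2 and Egr2 were among those without. These genes are short, with a median body of 6.96 kb, and the interval includes the 15.5% of all genes. For the 10 calcineurin, NFAT and Rel genes, the count was 3 within 10 kb, beside 7.33% of all protein-coding genes, and still 3 within 100 kb, beside 24.6%.

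**Figure D4:**
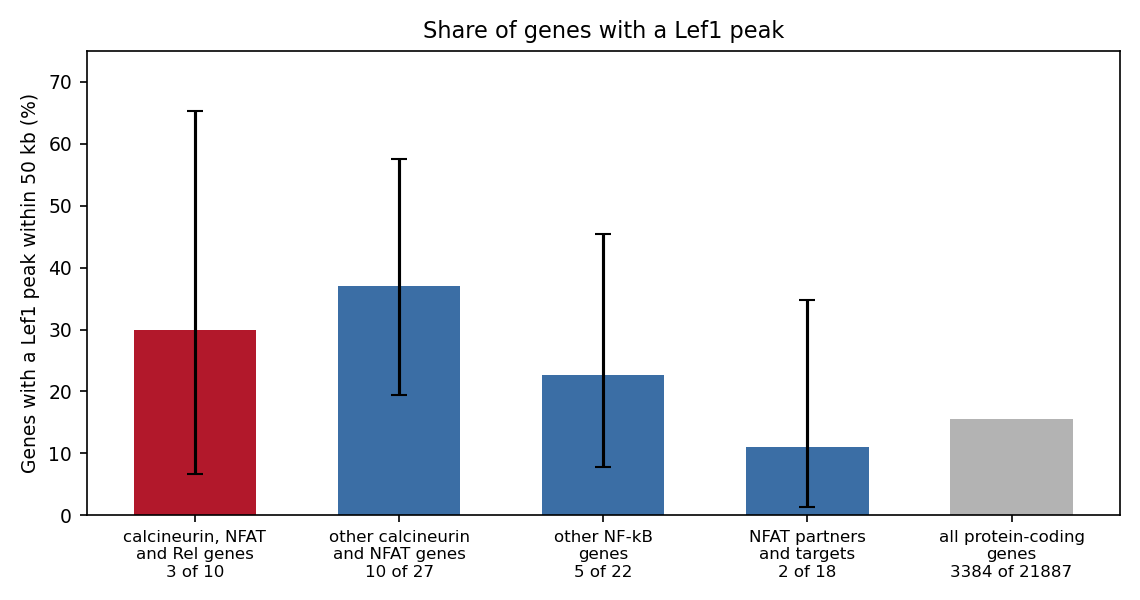
Share of genes with a Lef1 peak within 50 kb, in percent, for the 10 calcineurin, NFAT and Rel genes, the 3 lists of other pathway genes and all protein-coding genes. Error bars are exact 95% binomial intervals, and the bar of the 10 genes (30%) has an interval from 6.67 to 65.2%, which spans the 15.5% of all genes.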

How the data were processed

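The authors deposited 1 list of Lef1 peaks for the wild-type library, with a −log10 p-value per peak per the file headers. The Lef1-deficient library was the control of the calls, per the labels. FastQC, Bowtie2 2.3.4.1 and MACS2 2.1.1 were used on build mm10, per the submitters' processing notes. Their parameters are not given there. Peak numbers in the names run from 26 to 33876, so the list is a part of a longer set. No read counts or fold enrichments were used, and depth is unknown.

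Starts were raised by 1 on the assumption of the BED convention. Gene bodies and start windows came from RefSeq tables of GRCm38.p6 (the same assembly as mm10), and all 10 symbols and those of the lists matched. Exons, introns and UTRs were not used here, and the table of start windows had entries for 6 of the 10 genes. Overlap of 1 base counted. No test was run, with 1 library for each genotype. Intervals were computed with scipy 1.17.1, and the counting steps were tested on simulated data. Alternatives were windows of 0, 10 or 100 kb, peaks above the median score, peak centres, peaks less than 1 kb apart merged, and the nearest gene. The members and lists were chosen with earlier results of these data known. Every one of the 10 genes is named, as is each list gene with a peak (except some that are not reported here), up to 4 without one per list in alphabetical order, and genes that a list peak lies in or nearer to. Genes at the nearest peak outside a window were named after the values were seen.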

Additional observations from a re-analysis of the deposited data

How the results depend on the processing

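The number of genes with a peak and of their peaks stayed at 3 within 10 kb, within 100 kb, inside gene bodies alone, by the nearest gene, by peak centres and with close peaks merged. With peaks above the median score alone both were 0, and the density was 0 per Mb. Other densities were 1.02 to 3.17 per Mb, within the interval of the reported 1.54. For the number of genes with a peak, the counts by peak centres and with close peaks merged were not planned in advance. The lists of other genes were recounted by alternatives chosen after seeing the data. Inside gene bodies alone, and again above the median score, 5 of 27 other calcineurin and NFAT genes (against 10) and 3 of 22 other NF-kB genes (against 5) had a peak, beside 4.51% and 5.84% of all protein-coding genes under those settings. Of 18 NFAT partners and targets, 0 had a peak within 10 kb (7.33% of all genes), 0 inside the body (4.51%), 0 by the nearest gene (6.67%) and 4 within 100 kb (24.6%), against 2. Searching for CTTTG alone gave 2 start windows against 1, the second at Ppp3cb, and 48.6% of all windows hold it. The cause was not tested. Words in the peaks themselves were not searched for lack of sequence. No paired analysis was possible because each genotype has 1 library and peaks were listed for the wild type alone. For the same reason no replicate could be left out. Depth is unknown, so a gene said to have no peak is one where none passed the threshold of this list.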
